A study of Mus musculus with 18 samples.

Results

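The comparison of the 5 tumors labelled PI3Ki+SHP2i with the 4 labelled PI3Ki asks what an inhibitor of the phosphatase SHP2 did to transcription in tumors that already received an inhibitor of PI3K. These 9 tumors, of 18 in the series, were chosen by their labels alone. All came from 4T1, a murine mammary carcinoma line of the triple-negative type, with 300000 cells placed in the mammary fat pad of female Balb/c mice aged 8 weeks. CLR457 (PI3Ki) was given alone or together with SHP099 (SHP2i) from day 7 to day 21, when the tumors were taken, so every tumor of the comparison carried the PI3K inhibitor and differed by SHP099. The remaining tumors, 5 of mice given neither agent (Vehicle) and 4 of mice given SHP099 alone (SHP2i), served as a second, separate pair for the same inhibitor without PI3Ki. Each library is bulk RNA of a whole tumor, so fewer cells of a type and less RNA per cell cannot be told apart. The labels do not say whether a replicate number stands for a shared litter, cage or day.

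SHP2, encoded by Ptpn11, is a tyrosine phosphatase that binds activated growth factor receptors and their adaptors and helps to switch on RAS and the kinases RAF, MEK and ERK. ERK in turn drives the transcription of immediate early genes such as Egr1 and Fos and of feedback inhibitors such as the dual-specificity phosphatases. PI3K acts in parallel through AKT and mTOR, and its inhibition is known to release FOXO factors that raise receptor and insulin-signaling genes. SHP2 also works downstream of the CSF1 receptor in macrophages and of VEGF and PDGF receptors in vessels and stroma.

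The 9 libraries held 22.84 M to 26.62 M counts (median 23.78 M). Levels are given as CPM, that is, counts per M counts after TMM scaling of the libraries. Changes are log2 fold changes of PI3Ki+SHP2i over PI3Ki with their standard error (SE) from edgeR's quasi-likelihood fit, unless another pair is named, and p-values were adjusted over all genes by the Benjamini-Hochberg method. A gene is said to have passed, risen or fallen at an adjusted p under 0.05. The tumors are listed in the order of replicates 1, 2, 3 and 5 for PI3Ki and 1 to 5 for PI3Ki+SHP2i. The keratin genes of the carcinoma cells, Krt8 and Krt18, were detected in every tumor, and Krt8 was at 711, 514, 632 and 637 CPM in the PI3Ki tumors and 451, 372, 357, 449 and 336 CPM in the PI3Ki+SHP2i tumors. A signal of skeletal muscle set the PI3Ki group apart from all other tumors of the series. All 38 tested muscle genes were lower in PI3Ki+SHP2i. The filter keeps genes detected in 1 group alone, so muscle genes could enter through PI3Ki, and this count is no separate support. The summed level of the muscle list, tested or not, was 1270 to 2910 CPM in PI3Ki against 122 to 221 CPM in PI3Ki+SHP2i, 123 to 256 CPM in Vehicle and 126 to 149 CPM in SHP2i. Myh4, the fast myosin heavy chain, was at 754, 597, 406 and 299 CPM in the PI3Ki tumors and 0, 6.98, 0.571, 0 and 0 CPM in the PI3Ki+SHP2i tumors. PI3Ki replicate 2 also had the highest mean level of neutrophil, macrophage, fibroblast and pericyte genes among the 9 tumors. Genes of B and plasma cells split both groups in the same way, with high levels in PI3Ki replicates 3 and 5 and in PI3Ki+SHP2i replicates 3 and 4. Their summed level ran from 14.7 to 406 CPM in PI3Ki and from 17.9 to 645 CPM in PI3Ki+SHP2i, with a median change of -0.23 over 12 tested members that ran from -1.64 without PI3Ki+SHP2i replicate 4 to 1.12 without PI3Ki replicate 5. Several genes named here overlap another annotated gene, among them Gpr34 (Cask), Il1b (Il1bos), Cxcl10 (Art3), Clec9a (Clec12b), Pik3ca (Kcnmb3), Rps6kb1 (Rnft1), Fgf1 (Arhgap26), Spns2 (Mybbp1a) and Rabep2 (Atp2a1). The strand setting of the counting is not given in the sources used here, so reads of such pairs may have been shared.

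More genes were lower than higher by a large factor in PI3Ki+SHP2i compared with PI3Ki. The lower genes include 37 of the muscle list, and muscle content and the group cannot be told apart in this comparison. Of 15282 genes tested, 37.7% differed at an adjusted p under 0.05, with 19.9% higher and 17.8% lower in PI3Ki+SHP2i. At the additional limit of an absolute log2 fold change over 1, 419 genes (2.74%) were higher and 1277 (8.36%) lower, and 24.4% of the genes had CPM that did not overlap between the groups. The same inhibitor without PI3Ki raised 5.05% and lowered 6.54% of the genes at an adjusted p under 0.05 (SHP2i versus Vehicle). Of the 1277 genes lowered in the presence of PI3Ki, 390 (30.5%) were also past both limits in SHP2i versus Vehicle, where they made up 82.3% of the lowered genes. The overlap of raised genes was 48, which is 11.5% of those with and 49% of those without PI3Ki. The effect of SHP2i differed between the presence and the absence of PI3Ki for 378 genes (2.47%), being more negative with PI3Ki for 246 and more positive for 132. These genes passed the test of the difference itself, and the compared pairs share no tumor. This number depended on single tumors and ran from 149 without SHP2i replicate 4 to 605 without PI3Ki+SHP2i replicate 1. Over all genes the median log2 fold change was 0.014, against which the medians of gene lists are read.

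**Figure D1:**
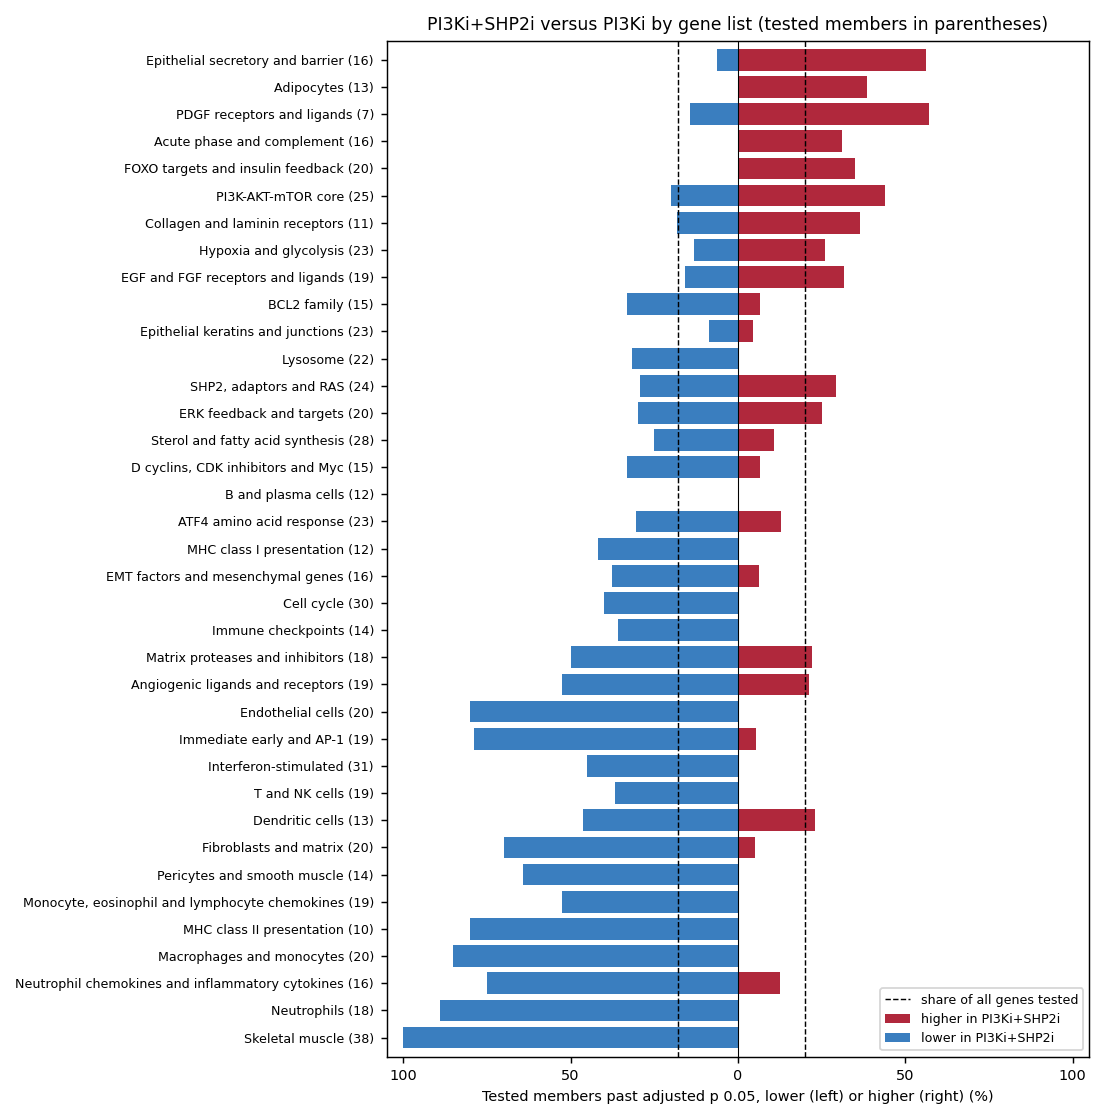
Percentage of the tested members of each gene list that were lower (blue, left) or higher (red, right) in PI3Ki+SHP2i than in PI3Ki at an adjusted p under 0.05, with the number of tested members in parentheses and lists ordered by their median log2 fold change. Dashed lines mark the shares of all genes tested, 17.8% lower and 19.9% higher. Muscle, neutrophil, macrophage, endothelial and immediate early lists reach far beyond the lower line, and secretory epithelial and PDGF lists beyond the higher one. The lists were chosen with earlier results of these data known. Muscle genes could pass the filter through PI3Ki alone, and secretory genes through PI3Ki+SHP2i alone. These shares are therefore no test.

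Immediate early genes fell together. Of 19 tested members of this list, 15 (78.9%) were lower and 1 was higher, against 17.8% and 19.9% of all genes. The median log2 fold change was -0.71. The zinc finger factor Egr1 was at 43.4, 36.6, 43.3 and 33.5 CPM in the PI3Ki tumors and 7.92, 8.54, 15, 9.67 and 5.8 CPM in the PI3Ki+SHP2i tumors. The groups stood apart by a wide gap, and the change was -2.06 ± 0.23 (SE, adjusted p = 6.48e-06). Fos, the AP-1 subunit, was at 50.9, 49.8, 66.1 and 32 CPM in the PI3Ki tumors and 16.3, 14.1, 20.6, 13.8 and 11.4 CPM in the PI3Ki+SHP2i tumors. Fos changed by -1.71 ± 0.23 (SE, adjusted p = 3.5e-05). Zfp36, which encodes an RNA-binding protein that destabilises cytokine mRNAs, was at 91.4, 100, 76.1 and 63.5 CPM in the PI3Ki tumors and 20, 21.8, 37.7, 34.5 and 20.9 CPM in the PI3Ki+SHP2i tumors. Zfp36 changed by -1.62 ± 0.22 (SE, adjusted p = 4.07e-05). PI3Ki+SHP2i replicate 3 kept the most Egr1, Fos and Zfp36 of its group and still lay below every PI3Ki tumor. The AP-1 subunit Junb fell less (-0.71 ± 0.13 SE, adjusted p = 0.000387), and the member that rose was Fosl2, named after its values were seen, with a change of 0.29 that did not pass in several alternatives. With SHP2i alone Egr1 changed by -0.38 ± 0.23 (SE, adjusted p = 0.273) and Fos by -0.14 ± 0.23 (SE, adjusted p = 0.722). The difference between both effects passed for Egr1 (-1.68 ± 0.32 SE, adjusted p = 0.0137) and for Fos (-1.57 ± 0.32 SE, adjusted p = 0.0171) in the fit and in each of its 28 alternatives other than a muscle covariate. For Zfp36 the difference was -1.29 ± 0.31 (SE, adjusted p = 0.0366), which passed in 16 of the 28. The number of lower members ranged from 11 without PI3Ki replicate 1 to 15.

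Serum response factor binds CArG boxes, through which ERK signaling reaches many immediate early genes. Within 250 bases before the start, on either strand, a CArG box was found for 171 of 12029 tested genes with a RefSeq promoter sequence (1.42%) and for 2 of 16 such members of the immediate early list, Zfp36 and Egr2. A cyclic AMP response element, TGACGTCA, was found in 2.83% of the genes and for 2 of the 16 members. The stretches around both CArG boxes are shown because both genes passed in the comparison (RefSeq, GRCm38.p6). Zfp36 lies on the minus strand at chr7:28379229-28379328 and Egr2 on the plus strand at chr10:67537464-67537563, each read 5′ to 3′ with the box in capitals.
Zfp36: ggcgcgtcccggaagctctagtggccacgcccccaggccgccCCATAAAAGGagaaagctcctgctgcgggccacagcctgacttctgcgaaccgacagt
Egr2: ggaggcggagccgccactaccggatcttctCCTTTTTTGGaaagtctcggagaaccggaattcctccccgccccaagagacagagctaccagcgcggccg
Egr2 was at 11.9, 9.28, 8.28 and 13 CPM in the PI3Ki tumors and 4.55, 5.81, 10.2, 4.71 and 2.97 CPM in the PI3Ki+SHP2i tumors. It was named for its box after its values were seen, and its change was -0.91 (adjusted p = 0.0128) with an overlap at PI3Ki+SHP2i replicate 3. It did not pass in a fit of the 9 tumors alone (-0.92, adjusted p = 0.0614). A match describes the letters of this window and not a bound factor.

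ERK feedback genes did not move as a group. Among 20 tested members 5 (25%) rose and 6 (30%) fell, against 19.9% and 17.8% of all genes, with a median log2 fold change of -0.17. Dusp5, a nuclear phosphatase that acts on ERK, fell most. It was at 17.7, 17.6, 13.2 and 17.5 CPM in the PI3Ki tumors and 3.02, 3.62, 6.81, 3.84 and 3.1 CPM in the PI3Ki+SHP2i tumors. Dusp5 changed by -2.01 ± 0.21 (SE, adjusted p = 4.15e-06), and it also fell with SHP2i alone (-0.75 ± 0.21 SE, adjusted p = 0.03). The difference of -1.26 ± 0.30 (SE, adjusted p = 0.034) passed in 14 of 28 alternatives. The ETS factor Etv5 changed by -0.66 ± 0.13 (SE, adjusted p = 0.000982) with and by -0.95 ± 0.14 (SE, adjusted p = 0.000294) without PI3Ki, a difference of 0.29 ± 0.19 (SE, adjusted p = 0.42). Spred2, an inhibitor of RAS activation, rose (0.63 ± 0.12 SE, adjusted p = 0.000899), and cyclin D1 (Ccnd1), a classical ERK target, was at 1040, 701, 998 and 885 CPM in the PI3Ki tumors and 795, 1110, 778, 1010 and 831 CPM in the PI3Ki+SHP2i tumors. Ccnd1 changed by 0.00 ± 0.13 (SE, adjusted p = 0.998). Without PI3Ki replicate 2 only 2 members were higher.

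The genes of SHP2, its adaptors and RAS mostly changed little in size and in both directions. Of 24 members 7 (29.2%) were higher and 7 (29.2%) lower, against 19.9% and 17.8% of all genes. Ptpn11 itself was at 143, 132, 176 and 133 CPM in the PI3Ki tumors and 173, 199, 174, 183 and 207 CPM in the PI3Ki+SHP2i tumors, a rise of 0.36 ± 0.09 (SE, adjusted p = 0.0049) that overlapped at PI3Ki replicate 3. The exchange factor Sos1 (0.79 ± 0.11 SE, adjusted p = 5.93e-05) and the FGF receptor adaptor Frs2 (0.78 ± 0.12 SE, adjusted p = 9.44e-05) rose further. Ptpn6, the related phosphatase SHP1 of blood cells, was at 92.4, 127, 87.9 and 88.3 CPM in the PI3Ki tumors and 42.8, 42.8, 48.4, 40 and 32.3 CPM in the PI3Ki+SHP2i tumors. Ptpn6 changed by -1.26 ± 0.15 (SE, adjusted p = 1.02e-05) with PI3Ki and fell without it as well (-1.31 ± 0.15 SE, adjusted p = 5.21e-05, difference 0.05 ± 0.21 SE, adjusted p = 0.924). The adaptor Shc1 changed by 0.21 ± 0.10 (SE, adjusted p = 0.123), and it passed without PI3Ki replicate 1 (0.31, adjusted p = 0.0195) and without PI3Ki+SHP2i replicate 1 (0.25, adjusted p = 0.0479). Without PI3Ki replicate 2 the list held 4 higher members and without PI3Ki+SHP2i replicate 5 it held 4 lower members, against 3 lower members when the 9 tumors were fitted alone.

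More genes of the PI3K pathway and its insulin branch rose than fell. Of 25 core members 11 (44%) were higher and 5 (20%) lower, and of 20 FOXO targets and insulin feedback genes 7 (35%) were higher, with medians of 0.25 and 0.42. Among all genes 19.9% were higher and 17.8% lower. Irs1, an insulin receptor substrate, was at 69.8, 40.9, 69.2 and 71 CPM in the PI3Ki tumors and 129, 141, 120, 165 and 143 CPM in the PI3Ki+SHP2i tumors. Every PI3Ki+SHP2i tumor exceeded every PI3Ki tumor, and the change was 1.16 ± 0.14 (SE, adjusted p = 1.33e-05), with a difference from the effect without PI3Ki that passed in 17 of 28 alternatives (0.82 ± 0.19 SE, adjusted p = 0.0342). The insulin receptor gene Insr rose by 0.44 ± 0.12 (SE, adjusted p = 0.00707), the factor Foxo3 by 0.65 ± 0.15 (SE, adjusted p = 0.00265) and the repressor Bcl6 by 0.44 ± 0.11 (SE, adjusted p = 0.00513). In the core list the regulatory subunit Pik3r1 (0.83 ± 0.13 SE, adjusted p = 0.000135) and the kinase Rps6kb1 (0.46 ± 0.07 SE, adjusted p = 0.000101) rose without overlap of the groups. The catalytic subunit gene Pik3ca rose by 0.28 ± 0.08 (SE, adjusted p = 0.0143), while Akt1 was at 373, 361, 390 and 324 CPM in the PI3Ki tumors and 330, 392, 328, 437 and 358 CPM in the PI3Ki+SHP2i tumors. Akt1 changed by 0.03 ± 0.09 (SE, adjusted p = 0.83). Among the 5 lower members, named after their values were seen, Pik3cd (-1.24), Pik3cg (-1.62) and Pik3r5 (-1.14) encode subunits typical of leukocytes. In a fit of the 9 tumors alone 6 core members were higher and 2 lower. These counts depended on PI3Ki replicate 2, without which 5 core members were higher, 2 lower and 4 FOXO and insulin genes higher. Fewer of all genes passed in that fit as well, 2012 higher and 2259 lower against 3037 and 2719. The log2 fold change of Pik3ca was then 0.22 (adjusted p = 0.0812), and without PI3Ki+SHP2i replicate 4 Pik3ca had an adjusted p of 0.054.

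PDGF signaling genes rose, led by the ligand Pdgfa (chr5:138976014-139000792). It was at 187, 159, 159 and 157 CPM in the PI3Ki tumors and 522, 454, 381, 634 and 566 CPM in the PI3Ki+SHP2i tumors. The mean was 3.09-fold higher, a change of 1.63 ± 0.16 (SE, adjusted p = 1.82e-06). The lowest of the PI3Ki+SHP2i tumors, replicate 3, lay far above the highest PI3Ki tumor, replicate 1. In SHP2i versus Vehicle the change was 0.29 ± 0.15 (SE, adjusted p = 0.207), and the difference of 1.33 ± 0.22 (SE, adjusted p = 0.00521) passed in each of the 28 alternatives without a muscle covariate. The ligand Pdgfc was at 121, 87.3, 115 and 95 CPM in the PI3Ki tumors and 178, 188, 167, 236 and 243 CPM in the PI3Ki+SHP2i tumors. Pdgfc changed by 0.95 ± 0.13 (SE, adjusted p = 4.65e-05). Its receptor Pdgfra was at 329, 251, 334 and 264 CPM in the PI3Ki tumors and 464, 546, 492, 604 and 1030 CPM in the PI3Ki+SHP2i tumors. Pdgfra changed by 1.09 ± 0.22 (SE, adjusted p = 0.00113), with the highest level in PI3Ki+SHP2i replicate 5. Pdgfrb, the receptor of pericytes and fibroblasts, rose with overlap of the groups (0.73 ± 0.20 SE, adjusted p = 0.00969), Pdgfb fell (-0.36 ± 0.11 SE, adjusted p = 0.0158) and Pdgfd changed by -0.44 ± 0.25 (SE, adjusted p = 0.187). The fall of Pdgfb did not pass without PI3Ki replicate 1 (log2 fold change -0.30, adjusted p = 0.0552). In all, 4 of 7 tested members (57.1%) were higher and 1 (14.3%) lower, against 19.9% and 17.8% of all genes, with a median of 0.73.

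Other receptor and ligand genes were mixed. The EGF and FGF list had 6 of 19 members (31.6%) higher and 3 (15.8%) lower, against 19.9% and 17.8% of all genes. Its median was 0.03, and 3 were higher in a fit of the 9 tumors alone. The EGF receptor gene Egfr rose with (0.92 ± 0.14 SE, adjusted p = 0.000112) and without PI3Ki (0.88 ± 0.14 SE, adjusted p = 0.000701), with a difference of 0.04 ± 0.20 (SE, adjusted p = 0.943), while the ligand Hbegf fell (-0.91 ± 0.14 SE, adjusted p = 0.000119). Fgf1 was at 5.67, 3.95, 6.13 and 6.03 CPM in the PI3Ki tumors and 11.4, 18.2, 18.5, 26.3 and 44.8 CPM in the PI3Ki+SHP2i tumors. Its rise of 2.13 ± 0.34 (SE, adjusted p = 0.000179) met a change of 0.03 ± 0.33 (SE, adjusted p = 0.965) without PI3Ki, a difference of 2.10 ± 0.47 (SE, adjusted p = 0.0277) that did not pass without any one of PI3Ki replicate 2, PI3Ki+SHP2i replicate 4, SHP2i replicates 2 and 4 or Vehicle replicate 5 (adjusted p up to 0.0662). Fgfr2 was at 1460, 1480, 1480 and 1420 CPM in the PI3Ki tumors and 1750, 1700, 1500, 1880 and 1960 CPM in the PI3Ki+SHP2i tumors. It rose by 0.27 ± 0.08 (SE, adjusted p = 0.0156), which did not pass without PI3Ki replicate 5 (0.24, adjusted p = 0.0505). The receptor tyrosine kinase gene Axl was at 713, 572, 695 and 539 CPM in the PI3Ki tumors and 507, 600, 477, 589 and 649 CPM in the PI3Ki+SHP2i tumors. Axl changed by -0.16 ± 0.12 (SE, adjusted p = 0.295).

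Vessel genes fell by moderate factors and in large number. Of 20 endothelial markers 16 (80%) were lower, against 17.8% of all genes, with a median of -0.70. Their summed level was 904 to 1190 CPM in PI3Ki and 654 to 779 CPM in PI3Ki+SHP2i. Vehicle (1070 to 1260 CPM) and SHP2i tumors (1050 to 1520 CPM) overlapped. Tie1, an endothelial receptor kinase, was at 32.4, 52.3, 39.7 and 34 CPM in the PI3Ki tumors and 19.2, 14.9, 18.3, 16.4 and 19.6 CPM in the PI3Ki+SHP2i tumors. Tie1 changed by -1.16 ± 0.15 (SE, adjusted p = 2.99e-05). Sox18, a factor of vessel and lymphatic development, changed by -1.43 ± 0.15 (SE, adjusted p = 3.41e-06) and the junction gene Pecam1 by -0.87 ± 0.13 (SE, adjusted p = 0.00011), each without overlap. Aplnr, the apelin receptor of sprouting vessels, was at 14.8, 44, 24 and 15.5 CPM in the PI3Ki tumors and 4.68, 5.68, 5.92, 2.85 and 2.83 CPM in the PI3Ki+SHP2i tumors. Aplnr changed by -2.48 ± 0.31 (SE, adjusted p = 1.49e-05). The Notch ligand Dll4 of tip cells changed by -1.37 ± 0.14 (SE, adjusted p = 3.12e-06). Eng, a TGF-beta coreceptor, did not pass (0.17 ± 0.10 SE, adjusted p = 0.183). In SHP2i versus Vehicle the median of the same markers was 0.02. The difference of effects passed for 6 markers, among them Tie1 (-1.05 ± 0.21 SE, adjusted p = 0.0173) and Sox18 (-1.19 ± 0.21 SE, adjusted p = 0.0082), and among other angiogenic genes for Aplnr (-2.80 ± 0.42 SE, adjusted p = 0.00276). These 3 passed in each of the 28 alternatives without a muscle covariate. The others were Pecam1 and, named after their values were seen, Cdh5, Kdr and Flt1.

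Pericyte and smooth muscle genes fell as well, with 9 of 14 (64.3%) lower, against 17.8% of all genes, and a median of -1.07. Mcam, an adhesion molecule of pericytes and endothelium, was at 85.8, 95.7, 90.6 and 69.1 CPM in the PI3Ki tumors and 39.9, 40.6, 45.7, 39.4 and 37.5 CPM in the PI3Ki+SHP2i tumors, a clear separation with a change of -1.07 ± 0.12 (SE, adjusted p = 6.62e-06) and a difference of effects of -0.93 ± 0.17 (SE, adjusted p = 0.00917). Acta2, the smooth muscle actin, was at 42.4, 200, 84 and 53.9 CPM in the PI3Ki tumors and 20.3, 23.9, 23.4, 10.3 and 14.8 CPM in the PI3Ki+SHP2i tumors. Acta2 changed by -2.36 ± 0.35 (SE, adjusted p = 8.51e-05), with its peak in PI3Ki replicate 2. Des fell further (-4.21 ± 0.41 SE, adjusted p = 1.87e-06), and this filament gene is also expressed in skeletal muscle, which was high in the PI3Ki tumors. The mean level of Mcam was 128 ± 10.96 CPM (SD, n = 5) in Vehicle, 116 ± 25.0 CPM (SD, n = 4) in SHP2i, 85.3 ± 11.6 CPM (SD, n = 4) in PI3Ki and 40.6 ± 3.09 CPM (SD, n = 5) in PI3Ki+SHP2i tumors.

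**Figure D2:**
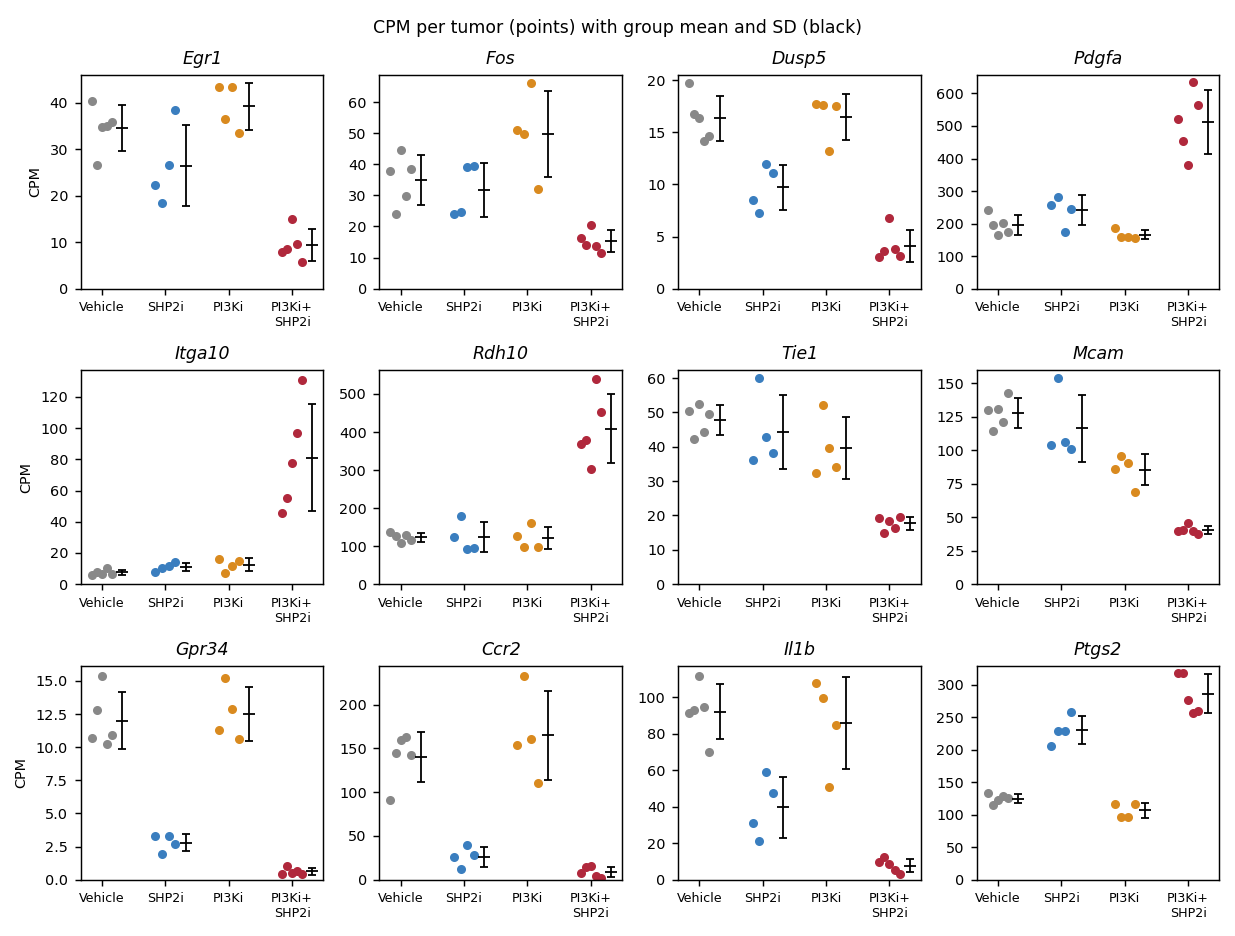
CPM of 12 genes in each tumor (points) of Vehicle, SHP2i, PI3Ki and PI3Ki+SHP2i, with the group mean and SD in black beside the points and axes starting at 0. Egr1, Fos, Pdgfa, Itga10, Rdh10, Tie1 and Mcam stand apart in the PI3Ki+SHP2i tumors, while Gpr34, Ccr2, Il1b and Ptgs2 moved with SHP2i in both settings.

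Fibroblast and matrix genes were mostly lower, with a wide spread between tumors. Of 20 members 14 (70%) were lower and 1 was higher, against 17.8% and 19.9% of all genes, with a median of -1.06. Col1a1, the main fibrillar collagen, was at 1740, 4330, 2960 and 1320 CPM in the PI3Ki tumors and 413, 915, 1010, 271 and 204 CPM in the PI3Ki+SHP2i tumors, and Col1a2 at 1460, 3940, 2450 and 1090 CPM in the PI3Ki tumors and 351, 848, 978, 230 and 199 CPM in the PI3Ki+SHP2i tumors. PI3Ki+SHP2i replicates 2 and 3 came near PI3Ki replicates 1 and 5 for both genes without reaching them, and the changes were -2.20 ± 0.47 (SE, adjusted p = 0.00155) and -2.10 ± 0.47 (SE, adjusted p = 0.00216). The small proteoglycan gene Dcn rose (1.21 ± 0.26 SE, adjusted p = 0.00184), and fibronectin (Fn1) was at 4690, 2180, 4720 and 3150 CPM in the PI3Ki tumors and 1810, 3500, 3290, 2850 and 3240 CPM in the PI3Ki+SHP2i tumors. Fn1 changed by -0.33 ± 0.27 (SE, adjusted p = 0.352). Without PI3Ki replicate 2, which had the most collagen, 6 members were lower. The count was 4 in a fit of the 9 tumors alone and 8 with voom and quality weights. The difference of Col1a1 between both settings (-2.78 ± 0.65 SE, adjusted p = 0.0334) passed in 19 of 28 alternatives and not without PI3Ki replicate 2 (-2.43, adjusted p = 0.0806).

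Among matrix proteases and inhibitors 9 of 18 (50%) fell and 4 (22.2%) rose, against 17.8% and 19.9% of all genes. Mmp13, a collagenase, was at 184, 190, 134 and 121 CPM in the PI3Ki tumors and 17.1, 11.1, 42.6, 3.07 and 4.43 CPM in the PI3Ki+SHP2i tumors. Mmp13 changed by -3.32 ± 0.52 (SE, adjusted p = 0.00013). Plaur, the urokinase receptor, was at 96.4, 98.5, 79.5 and 89.9 CPM in the PI3Ki tumors and 42.2, 42.8, 33.9, 39.3 and 27.7 CPM in the PI3Ki+SHP2i tumors. Plaur changed by -1.29 ± 0.11 (SE, adjusted p = 7.48e-07), more than without PI3Ki (-0.34 ± 0.11 SE, adjusted p = 0.0628, difference -0.96 ± 0.16 SE, adjusted p = 0.00577). Mmp11, stromelysin 3, was at 31.3, 23.9, 28.6 and 24.5 CPM in the PI3Ki tumors and 46.3, 55.7, 59.7, 56.9 and 60.2 CPM in the PI3Ki+SHP2i tumors. It rose by 1.04 ± 0.09 (SE, adjusted p = 9e-07), with a difference of 0.93 ± 0.13 (SE, adjusted p = 0.00179). Itga10, the integrin subunit alpha 10 that binds collagen (chr3:96645584-96664519), had the largest change among 11 collagen and laminin receptors, of which 4 were higher. It was at 16, 6.97, 11.7 and 15.1 CPM in the PI3Ki tumors and 45.3, 55.1, 77.4, 96.8 and 131 CPM in the PI3Ki+SHP2i tumors. The mean was 6.52-fold higher, a change of 2.71 ± 0.31 (SE, adjusted p = 8.32e-06). SHP2i without PI3Ki changed it by 0.56 ± 0.30 (SE, adjusted p = 0.22), and the difference of 2.14 ± 0.42 (SE, adjusted p = 0.015) passed in each of the 28 alternatives without a muscle covariate, as did those of Plaur and Mmp11. Ddr2, a collagen receptor kinase, rose by 0.72 ± 0.13 (SE, adjusted p = 0.000488), the shared integrin chain Itgb1 changed by 0.03 ± 0.09 (SE, adjusted p = 0.84), and the leukocyte collagen receptor Lair1 fell with (-1.84 ± 0.18 SE, adjusted p = 2.11e-06) and without PI3Ki (-1.84 ± 0.19 SE, adjusted p = 1.46e-05), with a difference of 0.00 ± 0.27 (SE, adjusted p = 0.997).

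Macrophage and monocyte genes fell in both settings. With PI3Ki 17 of 20 members (85%) were lower, against 17.8% of all genes, with a median of -1.84. Without PI3Ki 13 were lower, where 6.54% of all genes were, with a median of -1.36. Ccr2, the chemokine receptor of inflammatory monocytes, was at 154, 233, 161 and 111 CPM in the PI3Ki tumors and 7.4, 14.8, 15.3, 4.62 and 1.46 CPM in the PI3Ki+SHP2i tumors. Ccr2 changed by -4.23 ± 0.47 (SE, adjusted p = 6.69e-06), and changed by -2.42 ± 0.46 (SE, adjusted p = 0.00307) without PI3Ki. Fcgr1, the high-affinity IgG receptor, was at 50.3, 111, 52 and 41.5 CPM in the PI3Ki tumors and 4.03, 5.05, 5.06, 2.42 and 1.37 CPM in the PI3Ki+SHP2i tumors. Fcgr1 changed by -4.15 ± 0.37 (SE, adjusted p = 9e-07). Lyz2, a lysozyme of myeloid cells, was at 1500, 3330, 1840 and 1030 CPM in the PI3Ki tumors and 244, 429, 313, 202 and 101 CPM in the PI3Ki+SHP2i tumors and Apoe at 1530, 3570, 1780 and 1410 CPM in the PI3Ki tumors and 564, 1210, 1220, 621 and 408 CPM in the PI3Ki+SHP2i tumors. Both fell (-2.90 ± 0.36 SE, adjusted p = 1.48e-05 and -1.36 ± 0.33 SE, adjusted p = 0.0035). Gpr34, a lysophosphatidylserine receptor of macrophages that overlaps Cask (chrX:13622650-13640859), was at 11.3, 15.2, 12.9 and 10.6 CPM in the PI3Ki tumors and 0.438, 1.03, 0.53, 0.691 and 0.399 CPM in the PI3Ki+SHP2i tumors. It was among the changes with the smallest p (-4.33 ± 0.25 SE, adjusted p = 1.5e-08), and it fell more with than without PI3Ki (-2.09 ± 0.23 SE, adjusted p = 3.18e-05, difference -2.23 ± 0.33 SE, adjusted p = 0.00253). Gpr34 is not on the list, where the difference passed for 1 member, Cx3cr1, the fractalkine receptor, named after its values were seen. Its change was -0.30 with and -0.99 without PI3Ki. The summed level of the list was 5400 to 12200 CPM in PI3Ki, 1150 to 3540 CPM in PI3Ki+SHP2i, 5290 to 7330 CPM in Vehicle and 1960 to 3930 CPM in SHP2i, and without PI3Ki replicate 2 the list held 14 lower members.

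Antigen presentation by MHC class II, a task of macrophages, dendritic cells and B cells, moved with these genes. Of 10 members 8 were lower with and 6 without PI3Ki, against 17.8% and 6.54% of all genes, with medians of -1.84 and -1.41. The class II chain H2-Eb1 was at 814, 994, 637 and 562 CPM in the PI3Ki tumors and 217, 161, 217, 116 and 54.1 CPM in the PI3Ki+SHP2i tumors and the invariant chain Cd74 at 2120, 2380, 1860 and 1610 CPM in the PI3Ki tumors and 644, 490, 675, 424 and 168 CPM in the PI3Ki+SHP2i tumors. PI3Ki+SHP2i replicate 5 was lowest for both genes, and the changes were -2.30 ± 0.37 (SE, adjusted p = 0.000176) and -2.05 ± 0.35 (SE, adjusted p = 0.000279). The number of lower members was 8 when any one of the 9 tumors was left out. B and plasma cell genes, which share class II expression, had a median of -4.06 in SHP2i versus Vehicle, while their median with PI3Ki changed sign with single tumors, and their part in these changes was not tested. The proteasome subunit gene Psmb9 fell (-0.69 ± 0.21 SE, adjusted p = 0.0157), which did not pass without PI3Ki replicate 2 (-0.60, adjusted p = 0.0532). It was among 5 of 12 MHC class I genes (41.7%) that were lower, against 17.8% of all genes, with a median of -0.34. This count depended on many tumors, with 3 left without PI3Ki replicate 1 or PI3Ki+SHP2i replicate 3, 2 without PI3Ki+SHP2i replicate 4 or 5, and no member left without PI3Ki replicate 2 or in a fit of the 9 tumors alone.

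**Figure D3:**
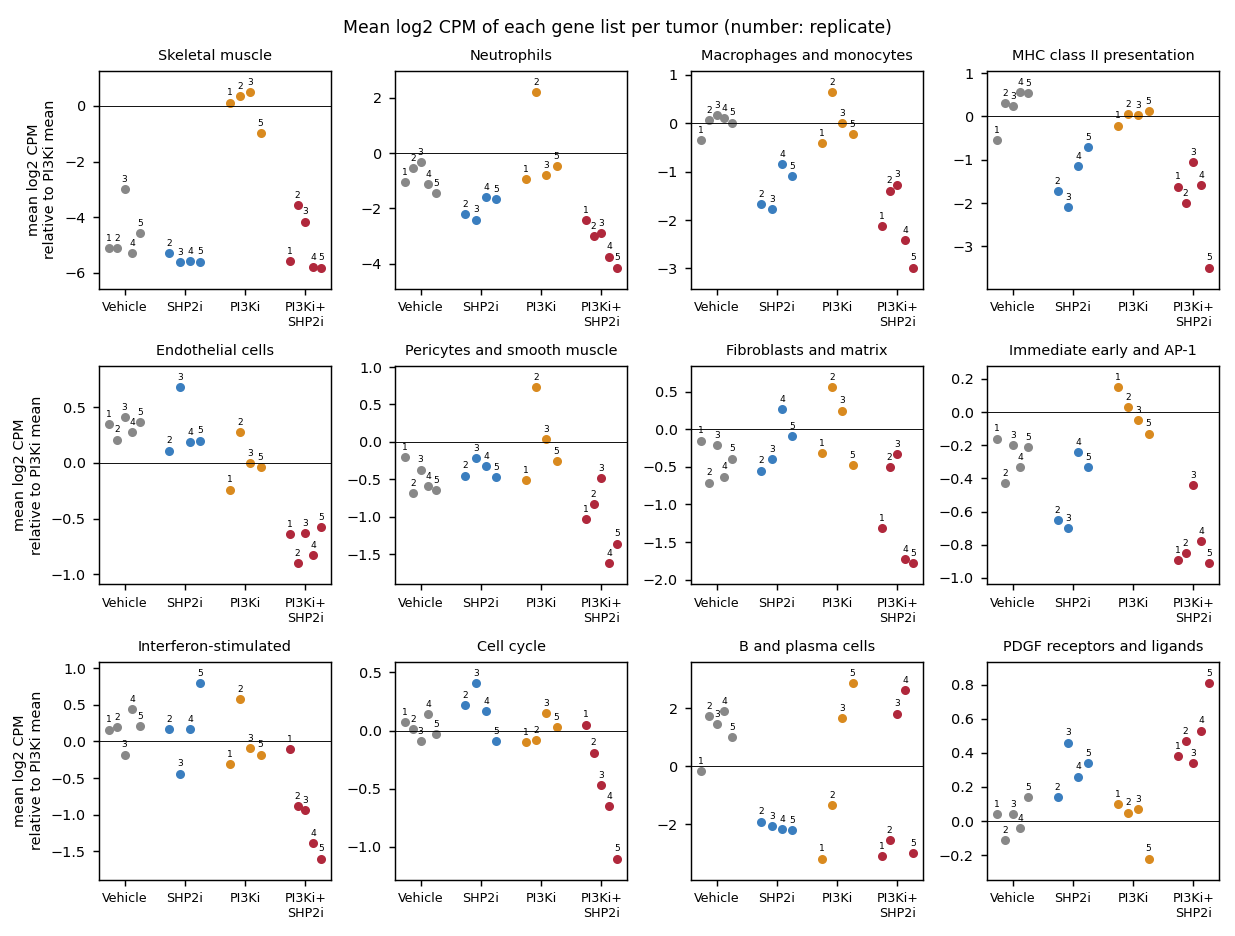
Mean log2 CPM of the tested members of 12 gene lists in each tumor, relative to the mean of the PI3Ki tumors, with replicate numbers beside the points. The PI3Ki tumors lie above all others for skeletal muscle, PI3Ki replicate 2 stands at 2.21 for neutrophil genes, and PI3Ki+SHP2i replicate 1 stays among the PI3Ki tumors for interferon and cell cycle genes.

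Neutrophil genes fell by large factors. Of 18 tested members 16 (88.9%) were lower, against 17.8% of all genes, with a median of -3.55. With DESeq2 10 were lower. Retnlg, a gene of mature neutrophils, was at 10.7, 74.6, 9.87 and 8.84 CPM in the PI3Ki tumors and 0.394, 0.715, 0.286, 0.432 and 0.487 CPM in the PI3Ki+SHP2i tumors, with PI3Ki replicate 2 far above the other tumors. The other PI3Ki tumors were above every PI3Ki+SHP2i tumor too, and the change was -5.80 ± 0.77 (SE, adjusted p = 3.3e-05). The protease inhibitor gene Stfa2l1 (-4.89 ± 0.65 SE, adjusted p = 3.28e-05) and Trem1, an activating receptor (-3.23 ± 0.38 SE, adjusted p = 1.02e-05), fell as well, and Lcn2, which carcinoma cells also make, was at 357, 497, 228 and 255 CPM in the PI3Ki tumors and 410, 284, 278, 298 and 314 CPM in the PI3Ki+SHP2i tumors. Lcn2 changed by -0.08 ± 0.19 (SE, adjusted p = 0.775). Without PI3Ki replicate 2 the list held 15 lower members with a median of -2.89. In SHP2i versus Vehicle 1 of 18 passed as lower, with a median of -0.98, and the mean log2 CPM of the list relative to the PI3Ki mean was -1.46 to -0.34 in Vehicle and -2.40 to -1.58 in SHP2i, without overlap. The difference of effects passed for 6, all of them more negative with PI3Ki. For Retnlg (-4.27 ± 0.99 SE, adjusted p = 0.0332) it did not pass without PI3Ki replicate 2 (-2.88, adjusted p = 0.0617).

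Signals that recruit and feed neutrophils fell too. Of 16 tested neutrophil chemokines and inflammatory cytokines 12 (75%) were lower and 2 (12.5%) higher, with a median of -1.87. Among all genes 17.8% were lower and 19.9% higher. The 2 higher members were Ptgs2 and Csf1, and without PI3Ki replicate 2 only 1 was higher. Interleukin 1 beta (Il1b, which overlaps Il1bos) was at 108, 99.5, 50.8 and 84.7 CPM in the PI3Ki tumors and 9.54, 12.3, 8.53, 5.14 and 2.97 CPM in the PI3Ki+SHP2i tumors. All 5 PI3Ki+SHP2i tumors lay far below the lowest PI3Ki tumor, with a change of -3.48 ± 0.35 (SE, adjusted p = 2.4e-06), and it also fell without PI3Ki (-1.21 ± 0.33 SE, adjusted p = 0.0251), less so by the test of the difference (-2.27 ± 0.47 SE, adjusted p = 0.0173). Csf3, the granulocyte growth factor G-CSF, was at 27.6, 19.7, 8.24 and 22.6 CPM in the PI3Ki tumors and 5.65, 2.82, 3.47, 1.9 and 1.2 CPM in the PI3Ki+SHP2i tumors. Csf3 changed by -2.70 ± 0.37 (SE, adjusted p = 4.15e-05). Ptgs2, the cyclooxygenase COX-2, rose against the trend of its list and had the smallest p among the named genes that rose. It was at 116, 96.9, 96.9 and 117 CPM in the PI3Ki tumors and 317, 318, 277, 257 and 260 CPM in the PI3Ki+SHP2i tumors. The mean was 2.68-fold higher, a change of 1.42 ± 0.09 (SE, adjusted p = 5.89e-08), and it rose with SHP2i alone (0.88 ± 0.09 SE, adjusted p = 1.43e-05). Its difference between both settings was small (0.54 ± 0.13 SE, adjusted p = 0.0343) and passed in 16 of 28 alternatives.

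The chemokine promoters are shown for the NF-kB motif they share. The letters GGGANTTTCC occurred within 250 bases before the start, on either strand, for 57 of 12029 tested genes (0.474%) and for 5 of 11 members of the cytokine list with a sequence, 4 of which, Csf1, Cxcl1, Cxcl2 and Cxcl3, passed the adjusted p limit and the fifth, Il6, did not. The AP-1 letters TGANTCA were found in 6.2% of the genes and for 3 of the 11. Cxcl1 lies at chr5:90891144-90891243 and Cxcl2 at chr5:90903772-90903871, both on the plus strand (RefSeq, GRCm38.p6), with the NF-kB motif in capitals.
Cxcl1: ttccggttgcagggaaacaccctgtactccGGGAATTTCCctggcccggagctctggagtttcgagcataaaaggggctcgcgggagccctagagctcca
Cxcl2: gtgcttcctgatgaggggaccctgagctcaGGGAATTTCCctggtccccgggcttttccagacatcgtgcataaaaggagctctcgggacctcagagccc
Both encode ligands of the neutrophil receptor CXCR2 and were named for the motif after their values were seen. Cxcl2 was at 7.99, 30, 5.67 and 18.8 CPM in the PI3Ki tumors and 1.79, 2.01, 1.63, 0.561 and 0.177 CPM in the PI3Ki+SHP2i tumors and changed by -3.65 (adjusted p = 0.000546). Cxcl1 was at 38.5, 27.8, 7.6 and 27.7 CPM in the PI3Ki tumors and 18.3, 8.5, 12.1, 5.27 and 5.09 CPM in the PI3Ki+SHP2i tumors and changed by -1.36 (adjusted p = 0.013), with an overlap at PI3Ki replicate 3, and without PI3Ki replicate 1 its adjusted p was 0.0529. Csf1, which holds the motif as well, rose by 0.39. A PU.1 motif, GAGGAAGT, was found in 3.1% of the genes, for 3 of 18 neutrophil members and for 1 of 14 macrophage members with a sequence.

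Interferon-stimulated genes fell in 4 of the 5 tumors. Of 31 tested members 14 (45.2%) were lower, against 17.8% of all genes, with a median of -0.77. SHP2i alone lowered 1, with a median of 0.10, where 6.54% of all genes were lower. The difference of effects passed for 0 members, so a dependence on PI3Ki is not shown for this list. The mean log2 CPM of the list, relative to the PI3Ki mean, was -0.31 to 0.58 in the PI3Ki tumors and -0.11, -0.88, -0.94, -1.39 and -1.60 in the PI3Ki+SHP2i tumors, and PI3Ki+SHP2i replicate 1 lay within the PI3Ki range. The T cell chemokine gene Cxcl10 was at 17.6, 30.4, 18.9 and 16.8 CPM in the PI3Ki tumors and 10.5, 6.57, 5.14, 4.36 and 1.55 CPM in the PI3Ki+SHP2i tumors. Cxcl10 changed by -1.89 ± 0.38 (SE, adjusted p = 0.00108). Cxcl9, its close relative, changed by -2.53 ± 0.50 (SE, adjusted p = 0.000976). Ifi44 (-1.77 ± 0.35 SE, adjusted p = 0.000882) and Oasl1 (-1.53 ± 0.30 SE, adjusted p = 0.000845) fell as well, and Irf8, a factor of myeloid cells, fell in both settings (-1.71 ± 0.24 SE, adjusted p = 4.79e-05 and -1.07 ± 0.24 SE, adjusted p = 0.00847). The count of lower members was 22 without PI3Ki+SHP2i replicate 1 and 8 without PI3Ki replicate 2, and it was 9 with voom and quality weights.

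An interferon-stimulated response element with the letters GAAANNGAAA lay within 250 bases before the start of 13 of 23 list members with a sequence (56.5%) and of 3.23% of all genes with one, on either strand. The list was written for interferon response, so this share describes the list and not its change. Cxcl10 (chr5:92349033-92349132) and Isg15 (chr4:156200827-156200926), both on the minus strand, are shown with matches in capitals, which in Isg15 are 3 that overlap (RefSeq, GRCm38.p6).
Cxcl10: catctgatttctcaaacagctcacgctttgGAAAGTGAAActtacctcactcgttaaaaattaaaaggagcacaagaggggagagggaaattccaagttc
Isg15: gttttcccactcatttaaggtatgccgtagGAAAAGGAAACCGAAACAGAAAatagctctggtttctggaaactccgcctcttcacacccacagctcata
Isg15, a ubiquitin-like modifier named for its motif after its values were seen, was at 36.3, 63.2, 33 and 37.6 CPM in the PI3Ki tumors and 38.1, 23.2, 17, 22.3 and 22.7 CPM in the PI3Ki+SHP2i tumors. Its change of -0.79 (adjusted p = 0.0241) did not pass without PI3Ki replicate 2 (-0.56, adjusted p = 0.112), PI3Ki+SHP2i replicate 3 (-0.68, adjusted p = 0.0538) or PI3Ki+SHP2i replicate 5 (-0.76, adjusted p = 0.0501).

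Lymphocyte and dendritic cell genes were lower in part, read against 17.8% lower and 19.9% higher among all genes. Of 19 T and NK cell genes 7 (36.8%) were lower, and without PI3Ki replicate 2 the count was 4. The NK receptor gene Klrb1c was at 10.9, 7.35, 6.47 and 5.95 CPM in the PI3Ki tumors and 0.438, 0.358, 0.816, 0.475 and 0.0886 CPM in the PI3Ki+SHP2i tumors. Klrk1, another NK receptor gene, was at 10.7, 13.8, 11 and 8.93 CPM in the PI3Ki tumors and 1.58, 1.12, 1.55, 0.648 and 0.841 CPM in the PI3Ki+SHP2i tumors. Their changes were -4.11 ± 0.37 (SE, adjusted p = 8.73e-07) and -3.27 ± 0.33 (SE, adjusted p = 2.29e-06), and both fell without PI3Ki (-2.81 ± 0.36 SE, adjusted p = 0.000137 and -2.35 ± 0.33 SE, adjusted p = 0.000223). Among 13 dendritic cell genes 6 (46.2%) were lower and 3 (23.1%) higher. Clec9a of cross-presenting dendritic cells was at 10, 7.94, 7.03 and 5.91 CPM in the PI3Ki tumors and 0.525, 0.626, 0.938, 1.12 and 0.841 CPM in the PI3Ki+SHP2i tumors. Clec9a changed by -3.24 ± 0.26 (SE, adjusted p = 3.45e-07). The costimulatory ligand Cd86 changed by -2.51 ± 0.33 (SE, adjusted p = 2.68e-05), and 5 of 14 immune checkpoint genes (35.7%) were lower, among them Vsir (-1.51 ± 0.18 SE, adjusted p = 1.09e-05), encoding the inhibitory receptor VISTA. Of 19 chemokines for monocytes, eosinophils and lymphocytes 10 were lower, and 6 in a fit of the 9 tumors alone. The eosinophil chemokine gene Ccl24 was at 50.1, 58.8, 36.2 and 65.5 CPM in the PI3Ki tumors and 9.15, 11.4, 20.3, 9.54 and 4.38 CPM in the PI3Ki+SHP2i tumors. Ccl24 changed by -2.26 ± 0.39 (SE, adjusted p = 0.000285).

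Metabolic lists held changes in both directions and are read against 19.9% higher and 17.8% lower among all genes. Of 23 hypoxia and glycolysis genes 6 (26.1%) were higher and 3 (13.0%) lower, and 5 were lower without PI3Ki replicate 3. The oxygen sensor gene Egln3 rose in both settings (0.78 ± 0.11 SE, adjusted p = 7.74e-05 and 0.76 ± 0.11 SE, adjusted p = 0.000395), whereas the lactate transporter gene Slc16a3, at 60.3, 110, 46.3 and 57.4 CPM in the PI3Ki tumors and 21.4, 22.5, 21.9, 9.59 and 6.55 CPM in the PI3Ki+SHP2i tumors, fell (-2.06 ± 0.31 SE, adjusted p = 0.000105). Of 28 sterol and fatty acid genes 7 (25.0%) were lower and 3 (10.7%) higher, with 4 lower and 1 higher in a fit of the 9 tumors alone. Among the higher members the desaturase gene Scd2 rose by 0.72 ± 0.12 (SE, adjusted p = 0.000336).

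Proliferation genes declined unevenly among tumors. Of 30 cell cycle genes 12 (40%, against 17.8% of all genes) were lower, with a median of -0.39. SHP2i alone lowered 1 with a median of 0.18. The difference of effects passed for 1 member, Cdt1, and there in 24 of 28 alternatives without a muscle covariate. Cdt1, which licenses replication origins, was at 62.8, 65.4, 65 and 66.9 CPM in the PI3Ki tumors and 47.2, 44.6, 36.1, 41.2 and 29.9 CPM in the PI3Ki+SHP2i tumors. Cdt1 changed by -0.71 ± 0.13 (SE, adjusted p = 0.000452) without overlap. Top2a, topoisomerase II alpha, was at 721, 661, 980 and 836 CPM in the PI3Ki tumors and 1060, 810, 596, 448 and 377 CPM in the PI3Ki+SHP2i tumors. It ran from above all PI3Ki tumors in PI3Ki+SHP2i replicate 1 to below them in replicates 3, 4 and 5, and its change of -0.28 ± 0.23 (SE, adjusted p = 0.357) passed without PI3Ki+SHP2i replicate 1 (-0.53, adjusted p = 0.0476). Without PI3Ki+SHP2i replicate 1 the list held 23 lower members and without replicate 5 it held 6, and in a fit of the 9 tumors alone 4. The CDK inhibitor gene Cdkn1a fell (-1.44 ± 0.21 SE, adjusted p = 8.7e-05), and Myc rose (0.35 ± 0.10 SE, adjusted p = 0.0116), which did not pass without PI3Ki replicate 2 (0.28, adjusted p = 0.061). Of 15 BCL2 family genes 5 (33.3%) were lower and 1 (6.67%) higher, against 17.8% and 19.9% of all genes. Bcl2a1b, a survival gene of leukocytes with close copies in the genome that may share reads, was at 46.7, 63.7, 44.4 and 43.3 CPM in the PI3Ki tumors and 8.62, 8.99, 9.71, 7.08 and 3.9 CPM in the PI3Ki+SHP2i tumors. Bcl2a1b changed by -2.69 ± 0.24 (SE, adjusted p = 7.58e-07), and Mcl1, a general survival gene, changed by -0.68 ± 0.12 (SE, adjusted p = 0.000285). Among amino acid response genes under ATF4 7 of 23 (30.4%) were lower and 3 (13.0%) higher, and 2 were lower in a fit of the 9 tumors alone. Mthfd2 of mitochondrial folate metabolism (-1.28 ± 0.28 SE, adjusted p = 0.00217) and the transporter Slc7a5 (0.78 ± 0.16 SE, adjusted p = 0.00119) moved in opposite directions.

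Secretory and barrier genes of epithelia rose. Of 16 tested members 9 (56.2%) were higher, with a median of 1.45, and SHP2i alone raised 4. Among all genes 19.9% were higher with and 5.05% without PI3Ki. The list was written with earlier results of these data known, and members could pass the filter through PI3Ki+SHP2i alone. The share is therefore no test. The difference of effects was more positive with PI3Ki for 0 members and more negative for 1. Reg1, a secreted lectin, was at 2.12, 0.882, 1.85 and 1.34 CPM in the PI3Ki tumors and 21.8, 17.9, 39.2, 8.12 and 7.84 CPM in the PI3Ki+SHP2i tumors. Reg1 changed by 3.61 ± 0.50 (SE, adjusted p = 4.49e-05). Sprr2a1, a cornified envelope gene with near-identical copies that may share reads, was at 0.359, 0.084, 2.5 and 4.52 CPM in the PI3Ki tumors and 136, 30.7, 32.3, 29.6 and 13.4 CPM in the PI3Ki+SHP2i tumors. Sprr2a1 changed by 4.69 ± 0.94 (SE, adjusted p = 0.00107), with its peak in PI3Ki+SHP2i replicate 1. Clca1, of mucous cells, was at 4.95, 0.462, 17.6 and 6.15 CPM in the PI3Ki tumors and 213, 46, 153, 65.3 and 39.5 CPM in the PI3Ki+SHP2i tumors. Clca1 changed by 3.82 ± 0.77 (SE, adjusted p = 0.00109), whereas its relative Clca2, the lower member of the list, fell (-2.37 ± 0.26 SE, adjusted p = 4.65e-06). Sprr3, Ivl and Agr2 were at 0 in all 9 tumors. Without PI3Ki replicate 3, and in a fit of the 9 tumors alone, the count of higher members was 5. The separate list of epithelial keratins and junctions mostly did not pass, with 2 of 23 lower, 1 higher, 20 not past the limit and a median of -0.12. The 2 were the keratins Krt8 (-0.67 ± 0.14 SE, adjusted p = 0.00135) and Krt18 (-0.69 ± 0.17 SE, adjusted p = 0.00377), and the higher member was Krt6a, named after its values were seen. The median ran from -0.41 without PI3Ki replicate 2 to 0.58 without PI3Ki replicate 5, and 5 members were higher without PI3Ki replicate 5. Acute phase genes rose for 5 of 16 (31.2%) with and for 5 without PI3Ki, against 19.9% and 5.05% of all genes. Among them was haptoglobin, Hp (1.36 ± 0.31 SE, adjusted p = 0.00282 and 1.51 ± 0.30 SE, adjusted p = 0.0044). Adipocyte genes were higher for 5 of 13 (38.5%), and their summed level was 380 to 1050 CPM in PI3Ki and 515 to 2490 CPM in PI3Ki+SHP2i. The count of higher adipocyte genes was 2 without PI3Ki+SHP2i replicate 3, 3 without any one of PI3Ki replicates 1, 2 and 3 and 1 in a fit of the 9 tumors alone.

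**Figure D4:**
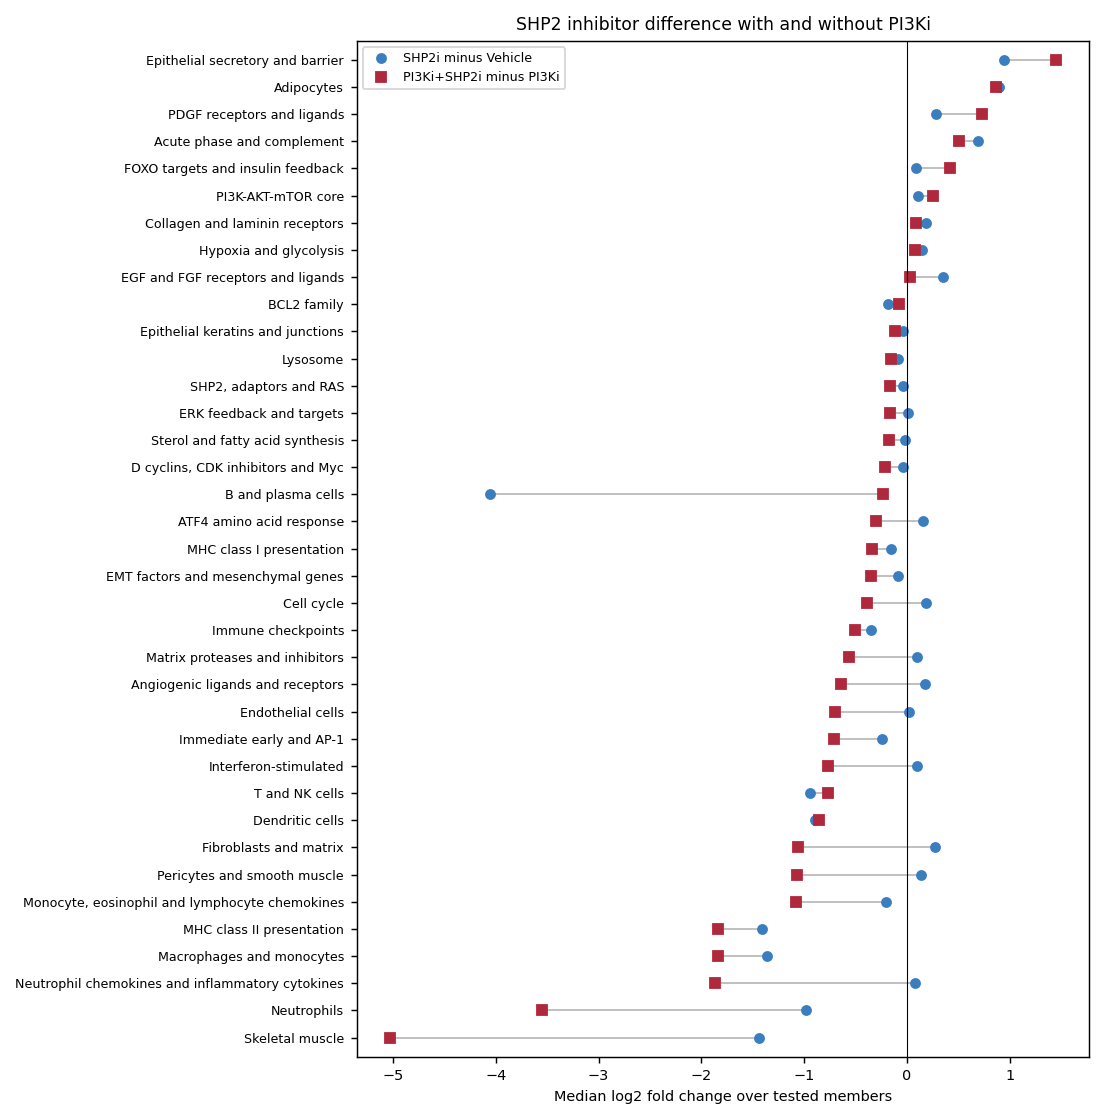
Median log2 fold change over the tested members of each gene list for SHP2i minus Vehicle (blue circles) and PI3Ki+SHP2i minus PI3Ki (red squares), joined by a grey line. Macrophage and MHC class II lists lie below 0 in both settings. Endothelial, pericyte, fibroblast, interferon and neutrophil cytokine lists lie near or above 0 without PI3Ki and below it with PI3Ki. The difference of effects passed for 0 members of the interferon list.

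The muscle covariate aside, the difference between both settings was most stable for a small set of genes. With that covariate none of the 41 differences examined one by one passed. Rdh10, which makes retinal for retinoic acid (chr1:16105882-16132550), was at 126, 98.6, 160 and 98.5 CPM in the PI3Ki tumors and 368, 380, 304, 540 and 453 CPM in the PI3Ki+SHP2i tumors. Rdh10 changed by 1.76 ± 0.21 (SE, adjusted p = 1.02e-05) against -0.00 ± 0.20 (SE, adjusted p = 0.994) without PI3Ki. The secreted glycoprotein gene Stc1 was at 75.4, 64.4, 91.9 and 68.6 CPM in the PI3Ki tumors and 288, 232, 191, 366 and 294 CPM in the PI3Ki+SHP2i tumors, with a difference of 1.75 ± 0.29 (SE, adjusted p = 0.00611), and the cell surface protein gene Cemip2 had one of 1.17 ± 0.20 (SE, adjusted p = 0.00703). Spns2, the sphingosine-1-phosphate exporter, was at 124, 81.7, 136 and 115 CPM in the PI3Ki tumors and 282, 309, 325, 385 and 414 CPM in the PI3Ki+SHP2i tumors and also rose with SHP2i alone (0.53 ± 0.14 SE, adjusted p = 0.0168, difference 1.05 ± 0.19 SE, adjusted p = 0.0107). Lmo7, an adaptor of cell junctions, rose in both settings (1.94 ± 0.13 SE, adjusted p = 8.14e-08 and 1.10 ± 0.12 SE, adjusted p = 3.95e-05), as did Phldb2, which anchors cortical microtubules (1.71 ± 0.13 SE, adjusted p = 2.81e-07 and 0.94 ± 0.13 SE, adjusted p = 0.00016). Leukocyte receptor genes were among the strongest shared falls, such as Sirpb1c (-4.41 ± 0.29 SE, adjusted p = 5.89e-08 and -2.90 ± 0.28 SE, adjusted p = 7.87e-06) and Pilra (-3.32 ± 0.26 SE, adjusted p = 2.98e-07 and -2.41 ± 0.25 SE, adjusted p = 1.97e-05), of which the Sirpb1 genes have close copies that may share reads. The TGF-beta gene Tgfb1 changed by -0.74 ± 0.07 (SE, adjusted p = 1.62e-06) with and -0.66 ± 0.07 (SE, adjusted p = 3.08e-05) without PI3Ki, and its target Tgfbi by -2.19 ± 0.29 (SE, adjusted p = 3.05e-05) and -1.47 ± 0.29 (SE, adjusted p = 0.00431). Of 41 genes examined one by one whose difference passed, 19 also passed in each of the alternatives without a muscle covariate, and 22 did not pass in at least 1. The 19 comprise Egr1, Fos, Pdgfa, Itga10, Mmp11, Rdh10, Stc1, Cemip2 and Spns2, the vascular genes Tie1, Sox18, Aplnr and Mcam, the genes Plaur, Gpr34 and Clca2, and the muscle genes Des and Ryr1 with Rabep2, which overlaps the muscle gene Atp2a1.

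The muscle signal that set the PI3Ki tumors apart was also entered into the fit. With the mean log2 CPM of the 38 muscle genes as a covariate, 1 gene was left at an adjusted p under 0.05 in the comparison and 1617 had an unadjusted p under 0.05, while for the difference of effects these numbers were 1 and 546. The covariate did not overlap between PI3Ki (-0.99 to 0.51) and PI3Ki+SHP2i (-5.81 to -3.58), so muscle content and the group cannot be told apart in this fit. The estimates under the covariate were -1.36 for Egr1 (adjusted p = 0.46), 0.80 for Pdgfa (adjusted p = 0.452), 1.36 for Itga10 (adjusted p = 0.487), -1.03 for Tie1 (adjusted p = 0.44), -2.98 for Gpr34 (adjusted p = 0.0778) and 1.40 for Ptgs2 (adjusted p = 0.0778). Genes that followed muscle among the Vehicle and SHP2i tumors (Pearson r over 0.8) numbered 52, of which 38 were among the 1277 lowered genes. Of the tested genes of the muscle list only 21 were among these 52. The limit therefore misses muscle genes, and 38 does not measure the part of muscle in the falls. In SHP2i versus Vehicle 3 of the 38 muscle genes were lower, with a median of -1.44. The summed muscle levels of these groups overlapped, while the mean log2 CPM of the muscle genes relative to the PI3Ki mean was -5.28 to -2.99 in Vehicle and -5.61 to -5.29 in SHP2i. The part of muscle content in the changes of other lists was not tested between these groups.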

How the data were processed

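RNA of 18 tumors was sequenced from poly(A)-selected, directional libraries, 1 per tumor. The authors aligned reads with STAR to GRCm38 and deposited raw read counts per gene, made with qCount of QuasR. Builds and aligner follow the labels, which also name hg19, and the annotation used for counting is not given in the sources used here. The tables held 22792 genes by Entrez identifier, of which 22760 matched a RefSeq symbol and 32, with 0.0193% of the counts, did not.

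Groups were taken from the labels. Genes were filtered with filterByExpr (minimum count 10, minimum total 15), scaled by TMM and fitted with 1 mean per group over all 18 tumors by edgeR 4.0.16 in R 4.3.3 (quasi-likelihood test, common biological coefficient of variation 0.2125). The contrasts were PI3Ki+SHP2i minus PI3Ki, SHP2i minus Vehicle and the difference of both. A gene counted as changed when its adjusted p was below 0.05 and its log2 fold change beyond 1 in size, and lists were counted at the adjusted p alone. List levels are means of log2 CPM with a prior count of 2. Totals of 22.84 M to 26.62 M counts set the depth. The p-values set a difference between groups against the spread between tumors within groups, estimated over all 18 tumors. In simulated data 95% of 100 genes changed by 1.5 on the log2 scale in PI3Ki+SHP2i versus PI3Ki were recovered among 15164 genes. The simulation gave each gene the fitted trend of the spread, without deviating tumors or a muscle signal, and changed few genes. The share may differ in the real tumors.

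Named genes were, in each direction, 10 genes of smallest p and 5 of largest change past both limits, with a mean log2 CPM over 1, no overlap of the groups and no model symbol. To these came the 3 members with the smallest p and the member with the highest level of each list, the 5 genes with the smallest p for the difference in each direction and genes named in the study's text. Members, lists and this rule were chosen with earlier results of these data known. Alternatives were DESeq2 1.42.0, voom with quality weights in limma 3.58.1, the likelihood ratio test, other scalings and filters, a test against the fold limit, a replicate block, covariates for muscle and for B cells, a fit of the 9 tumors alone and each tumor left out in turn. Promoter motifs were searched on both strands of the 250 bases before RefSeq starts (GRCm38.p6). A few genes that the rule selects are not reported here.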

Additional observations from a re-analysis of the deposited data

Results flagged for a closer look

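In 308 groups of 4 or 5 values, 19 single tumors stood apart from their group by the ratio of gap to range, where chance gives about 1 in 20 groups. PI3Ki replicate 2 accounts for 9 of them. Its mean level relative to the PI3Ki mean (log2) was 2.21 for neutrophil genes against -0.93 to -0.48 in the other PI3Ki tumors, 0.57 for acute phase genes against -0.27 to -0.14, and 0.38 for lysosome genes against -0.14 to -0.12. It held 74.6 CPM of the neutrophil gene Retnlg and 127 CPM of the leukocyte phosphatase gene Ptpn6, above the other tumors of its group. It was below them for Spred2 (70.2 CPM), Irs1 (40.9 CPM), Insr (68.8 CPM) and Lmo7 (49.9 CPM).

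Among the remaining PI3Ki tumors, replicate 1 was high for ERK feedback genes (0.22), low for T and NK cell genes (-0.43) and high for Pdgfa (187 CPM). Replicate 3 was low for Dusp5 (13.2 CPM) and high for Cemip2 (142 CPM), and replicate 5 was low for PDGF genes (-0.22) and for the muscle gene Atp2a1 (135 CPM). In PI3Ki+SHP2i, replicate 3 was high for immediate early genes (-0.44 against -0.91 to -0.78) and low for Spred2 (115 CPM), and replicate 4 was low for Pdgfd (2.20 CPM).

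The effect of SHP2i with PI3Ki differed from that without PI3Ki for 41 of 117 genes examined one by one, by the test of the difference at an adjusted p under 0.05 in edgeR. With the muscle covariate none of the 41 passed. For 19 of them the difference passed in every other alternative. It was, on the log2 scale, -1.68 for Egr1, -1.57 for Fos, 1.33 for Pdgfa, -2.80 for Aplnr, -1.05 for Tie1, -1.19 for Sox18, -0.93 for Mcam, -3.81 for Des, -0.96 for Plaur, 0.93 for Mmp11, 2.14 for Itga10, -2.23 for Gpr34, -2.06 for Clca2, 1.76 for Rdh10, 1.75 for Stc1, 1.17 for Cemip2, 1.05 for Spns2, -4.40 for Ryr1 and -2.81 for Rabep2.

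For the other 22 the difference was lost in at least 1 alternative. Among more negative effects it was -1.26 for Dusp5, -1.29 for Zfp36, -0.78 for Dll4, -0.84 for Pecam1, -2.25 for Acta2, -2.78 for Col1a1, -2.55 for Col1a2, -4.27 for Retnlg, -3.67 for Stfa2l1, -2.27 for Il1b, -2.07 for Csf3, -3.60 for Cxcl2, -0.81 for Cdt1, -5.36 for Tnnc2 and -1.51 for Sirpb1c. Among more positive effects it was 0.82 for Irs1, 2.10 for Fgf1, 0.72 for Pdgfc, 0.54 for Ptgs2, 0.63 for Myc, 0.84 for Lmo7 and 0.76 for Phldb2.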

How the results depend on the processing

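With PI3Ki, the number of changed genes ran from 1381 to 1938 when single tumors were left out, with 330 to 487 higher and 1051 to 1503 lower, against 1696, 419 and 1277. Without the fold limit 5756 passed (3037 higher, 2719 lower). Tested against that limit 562 passed (65 higher, 497 lower), with 100 list members in place of 374. Other scalings moved the median of all genes by less than 0.1 on the log2 scale. Which direction held more genes at the adjusted p limit alone still depended on the processing. Upper quartile factors gave 2650 higher and 3078 lower, RLE size factors 2828 and 2855, and no low-count filter 2585 and 2935. The number of genes with a different effect was least stable. It was 378 as reported, 766 with DESeq2, 643 with the likelihood ratio test, 155 with the B cell covariate and 149 to 605 when single tumors were left out. In SHP2i versus Vehicle 572 genes changed, 869 with voom and 264 with the B cell covariate. The cause was not tested.

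With the skeletal muscle covariate 1 gene remained changed, Myh1, which was higher, with 0 lower, 1 list member and 1 gene with a different effect. Signs turned for Pdgfb (0.01), Col1a1 (0.86), Col1a2 (1.07, and 0.05 for its difference), Apoe (0.71) and Atp2a1 (0.78), none of them past the limit. Muscle level and group cannot be told apart here.

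Whether replicate numbers shared by PI3Ki and PI3Ki+SHP2i pair the tumors cannot be decided here. Deviations of equal numbers from their group means correlated at 0.175, 0.292, 0.007 and -0.134, but unlike numbers were not correlated for reference. With the replicate block 1648 genes changed, 200 had a different effect and Fgfr2 had an adjusted p of 0.0508.

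Of 117 genes examined one by one 107 passed with PI3Ki. Single genes were not followed under the test against the fold limit. In all other alternatives but the muscle covariate, 99 of the 107 passed, and 8 were lost in at least 1. In the fit of the 9 tumors alone the adjusted p was 0.0614 for Egr2, 0.0573 for Pik3ca, 0.074 for Fgfr2, 0.0624 for Cxcl1, 0.0586 for Myc and 0.0756 for Psmb9, and with voom it was 0.0603 for Pdgfb and 0.0775 for Isg15.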
